A study of Mus musculus with 10 samples.

Results

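The 10 enzyme genes of pyrimidine and deoxynucleotide synthesis that are described here were *Cad*, *Dhodh*, *Umps*, *Ctps*, *Ctps2*, *Tyms*, *Dut*, *Tk1*, *Rrm1* and *Rrm2*. They were chosen by their symbols, each of which named a single entry among the 43346 genes of the counts table, and all 10 passed the filter on low counts. Cells make pyrimidine nucleotides de novo by assembling the ring from glutamine, bicarbonate and aspartate, which gives UMP, and by aminating UTP to CTP. Ribonucleotide reductase then turns ribonucleotides into deoxyribonucleotides, and thymidylate is made either from dUMP or from salvaged thymidine. Neural crest cells proliferate strongly, and several of these enzymes are known to be produced mainly around S phase, when DNA is copied.

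Bulk poly-A RNA was compared between wildtype O9-1 cells (4 biological replicates), Kat5 ko cells (3 clones) and Ep400 ko cells (3 clones). O9-1 is a mouse line of cranial neural crest origin that was grown on Matrigel in medium conditioned by STO fibroblasts, and all groups shared this culture. Kat5 is a lysine acetyltransferase and Ep400 an ATP-dependent chromatin remodeler, which occur together in the Tip60/Ep400 complex, and each gene had been disrupted with CRISPR/Cas9. Each knockout library came from a single-cell clone, so that differences between clones that are unrelated to the edited gene cannot be told apart from its effect, and in clones Ep400/2 and Ep400/3 some alleles carried small in-frame deletions, as the study describes these clones. Between 30968945 and 48301792 reads per library were counted on genes. *Kat5* had a log2-fold change of −1.40 (standard error, SE, 0.17, adjusted p = 0.0217) in the Kat5 ko clones, and *Ep400* one of −1.44 (SE 0.12, adjusted p = 0.00121) in the Ep400 ko clones, in edgeR's quasi-likelihood test. Of 16 neural crest markers, 12 had a wildtype mean of at least 1 CPM (counts scaled to a common library size), among them *Twist1*, *Sox9*, *Prrx1* and *Pdgfra*, whereas *Sox10* and *Foxd3* had 0 counts in all 10 libraries. The 16 markers summed to 1710 to 1970 CPM in wildtype libraries, 1730 to 1920 in the Kat5 ko and 2440 to 3720 in the Ep400 ko clones, where *Prrx1* (881 to 2160 CPM) and *Pdgfra* (520 to 648 CPM) made up most of the sum. In the Ep400 ko clones, *Tfap2b*, *Ets1*, *Snai1*, *Sox9* and *Nes* had negative log2-fold changes of −0.84 to −0.31 that were not called. *Pdgfra*, *Tfap2a*, *Snai2* and *Pax3* were called with positive ones, where 13.9% of all genes were called in either direction. No other marker, *Prrx1* included, was called there. A set of 11 markers of other cell types summed to 2.86 to 8.97 CPM over all libraries.

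Levels are given below as CPM after TMM normalization over all 10 libraries, and changes as log2-fold changes from edgeR's quasi-likelihood test, with p adjusted over all genes tested by the Benjamini-Hochberg method. A gene was called at an adjusted p of at most 0.05, which held for 0.499% of all genes tested in the Kat5 ko clones and 13.9% in the Ep400 ko clones. All 10 enzyme genes were expressed in wildtype cells. Per kilobase of exon, *Rrm2* with 70.0 ± 11.6 CPM (SD, n = 4) and *Ctps* with 53.6 ± 4.96 stood highest, and their ranges overlapped. *Umps* (33.6 ± 7.11), *Cad* (31.6 ± 2.65), *Tk1* (30.1 ± 2.00), *Dut* (28.1 ± 7.35) and *Rrm1* (25.7 ± 1.94) followed, each overlapping the next. *Ctps2* (14.6 ± 1.58) and *Tyms* (12.6 ± 1.06) overlapped each other but not *Rrm1*, and *Dhodh* was lowest at 4.22 ± 0.596 CPM per kilobase. The length was that of all annotated exons of a gene together, which can exceed the length of the transcripts that are expressed. This order therefore depends on the annotation. In CPM without division by length, *Rrm1* (283 ± 21.3) and *Cad* (258 ± 21.7) had the highest wildtype means. Together the 10 genes took 0.138% to 0.158% of the counts in wildtype libraries. Clones Kat5/1, Kat5/2 and Kat5/3 had shares of 0.156%, 0.256% and 0.238%, and Ep400/1, Ep400/2 and Ep400/3 had 0.141%, 0.104% and 0.063%. The share was thus highest in Kat5/2 and Kat5/3, close to wildtype in Kat5/1 and Ep400/1, and lowest in Ep400/3. Ep400/3 also had the highest share of mitochondrial counts, 3.24% against 0.893% to 2.43% in the other libraries, and of counts on the 20 most abundant genes, 10.8% against 7.15% to 10% in the others, and the part of this in its low levels was not tested. In bulk RNA, fewer cells that express a gene and less of its RNA per cell cannot be told apart.

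**Figure D1:**
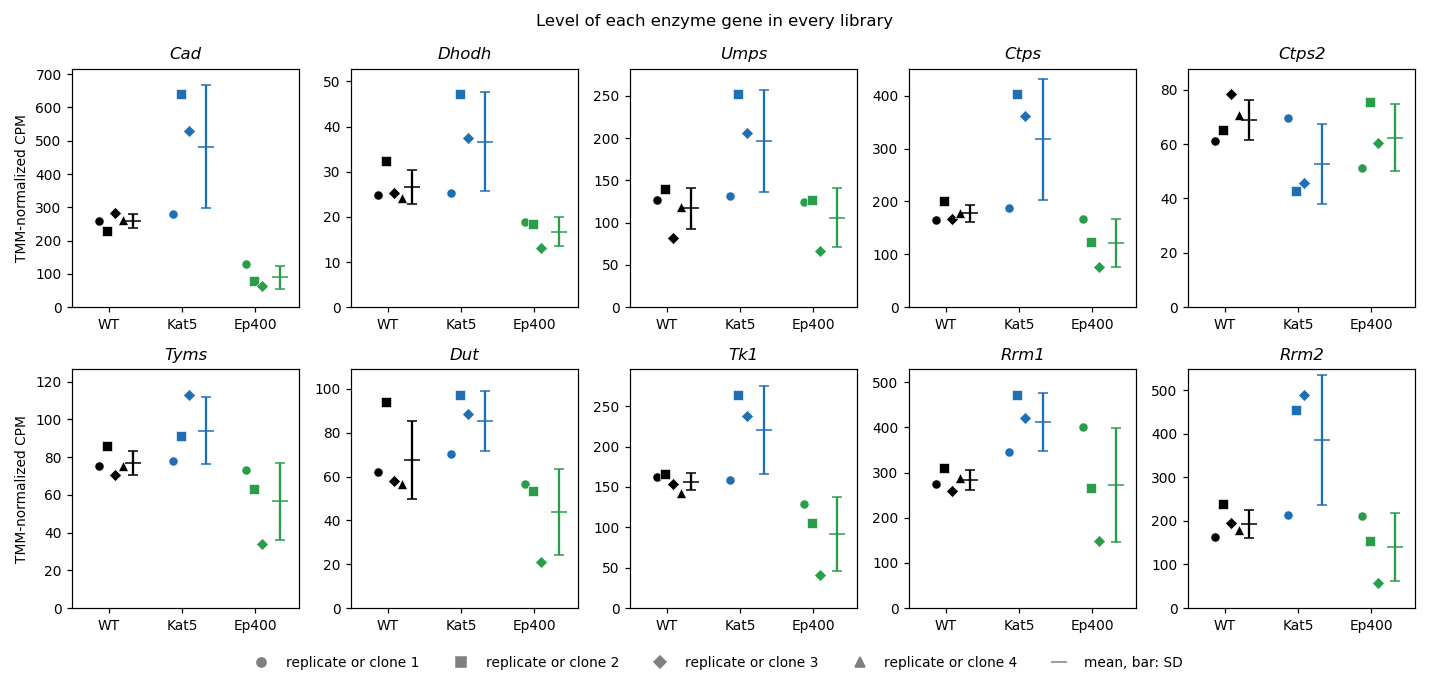
Level of each of the 10 enzyme genes in TMM-normalized CPM (y axes, from 0) in the 4 wildtype (WT) libraries and the 3 clones of each knockout, with the mean and SD of each group beside the points. All Ep400 ko clones lie below the wildtype libraries for Cad, at 62.5 to 129 against 230 to 283 CPM, while clone Kat5/1 lies near the wildtype libraries for most genes.

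Promoters from RefSeq, 250 bases before to 50 bases after an annotated start on GRCm38.p6, were at hand for 9 of the 10 genes, in 12 windows. Those of *Cad* (chr5:31054530-31054829, plus strand), the gene called in the Ep400 ko clones, of *Ctps2* (chrX:162901921-162902220, plus strand, the first of 3 windows), the gene with lower levels in Kat5/2 and Kat5/3, and of *Rrm1* (chr7:102441445-102441744, plus strand) and *Rrm2* (chr12:24708004-24708303, plus strand), which encode the subunits of 1 enzyme, are shown. Capitals mark the letters CCAAT, searched on both strands, and lower case the rest.
Cad: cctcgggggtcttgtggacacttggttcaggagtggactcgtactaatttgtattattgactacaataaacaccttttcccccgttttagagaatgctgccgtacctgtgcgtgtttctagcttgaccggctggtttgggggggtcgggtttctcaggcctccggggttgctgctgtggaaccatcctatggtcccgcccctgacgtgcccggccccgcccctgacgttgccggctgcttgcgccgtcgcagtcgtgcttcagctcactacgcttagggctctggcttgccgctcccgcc
Ctps2: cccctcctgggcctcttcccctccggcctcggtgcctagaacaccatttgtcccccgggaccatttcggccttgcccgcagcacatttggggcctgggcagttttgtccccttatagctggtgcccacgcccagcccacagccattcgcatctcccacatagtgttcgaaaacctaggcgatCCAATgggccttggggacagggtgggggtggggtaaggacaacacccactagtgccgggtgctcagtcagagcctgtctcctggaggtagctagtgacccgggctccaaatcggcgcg
Rrm1: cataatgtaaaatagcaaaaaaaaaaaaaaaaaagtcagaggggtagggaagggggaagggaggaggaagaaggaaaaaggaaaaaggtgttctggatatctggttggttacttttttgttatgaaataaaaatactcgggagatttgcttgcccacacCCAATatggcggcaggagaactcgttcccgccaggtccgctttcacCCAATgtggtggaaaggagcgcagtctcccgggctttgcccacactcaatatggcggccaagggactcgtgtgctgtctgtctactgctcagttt
Rrm2: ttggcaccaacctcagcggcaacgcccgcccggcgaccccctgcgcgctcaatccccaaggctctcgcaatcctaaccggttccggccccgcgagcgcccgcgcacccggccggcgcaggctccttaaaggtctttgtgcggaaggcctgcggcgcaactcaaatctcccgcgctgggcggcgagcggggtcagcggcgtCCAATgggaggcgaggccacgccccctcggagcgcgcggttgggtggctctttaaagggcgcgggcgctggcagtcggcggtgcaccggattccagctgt
CCAAT was found 68 bases before the start in *Ctps2*, 91 and 45 bases before it in *Rrm1* and 50 bases before it in *Rrm2*, all on the strand of the gene, and in none of the other 9 windows. Of all 32851 promoter windows of this length, 37.4% held it. The letters TTTGGCGC, TTTCCCGC, TTTGCCGC and TTTCGCGC, as examples of E2F motifs, were in 0 of the 12 windows and in 2.26% of all windows. The E-box CACGTG was in the *Tyms* window, 61 bases before the start, and in 7.15% of all windows. A match of letters is a description and does not show binding.

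*Cad*, whose product carries out the first steps of ring synthesis and is the regulated entry into the pathway, was the enzyme gene with the largest decrease in the Ep400 ko clones. *Cad* (ENSMUSG00000013629, chromosome 5 from 31054780 to 31078479) was at 260, 230, 283 and 261 CPM in the 4 wildtype libraries and at 129, 80.1 and 62.5 CPM in clones Ep400/1, Ep400/2 and Ep400/3. The groups did not overlap, and Ep400/1 as the highest of these clones was still below the lowest wildtype library. *Cad* fell to 0.35 times its wildtype level (log2-fold change −1.52, SE 0.24, 95% interval −2.07 to −0.96, adjusted p = 0.0078), and it also met the thresholds of the study (log2 values beyond 1 in size, and over 100 normalized counts on average). It was called with each of the 7 libraries left out in turn, with log2-fold changes between −1.86 and −1.31. When replicate numbers, which do not pair the libraries, were a block, the log2-fold change was −1.57 and its adjusted p 0.0591. With this block 1.23% of all genes were called, against 13.9% without it. In clones Kat5/1, Kat5/2 and Kat5/3, *Cad* was at 280, 640 and 528 CPM. Kat5/1 was thus inside the wildtype range and the other clones were far above it, which gave a log2-fold change of 0.87 (SE 0.25, 95% interval 0.30 to 1.43) at an adjusted p of 0.105.

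*Dhodh* encodes the mitochondrial enzyme that oxidizes dihydroorotate to orotate. Wildtype libraries had 24.9, 32.3, 25.3 and 24.3 CPM, the Kat5 ko clones 25.3, 47.2 and 37.5, and the Ep400 ko clones 18.8, 18.4 and 13.1. All Ep400 ko clones were below the wildtype range, with a log2-fold change of −0.67 (SE 0.19) that missed the threshold at an adjusted p of 0.0527, whereas the Kat5 ko clones overlapped wildtype (0.43, SE 0.22, adjusted p = 0.29). *Umps*, which encodes the bifunctional enzyme that makes UMP from orotate, differed from *Cad* in the Ep400 ko clones. It was at 127, 140, 82.4 and 118 CPM in wildtype and at 125, 127 and 66.2 CPM in the Ep400 ko clones. Ep400/1 and Ep400/2 were inside the wildtype range and Ep400/3 was below it. The log2-fold change was −0.14, with a 95% interval from −0.74 to 0.45 (adjusted p = 0.742), and 0.10 without clone Ep400/3. In the Kat5 ko clones, *Umps* was at 132, 252 and 206 CPM, a log2-fold change of 0.72 (SE 0.25, adjusted p = 0.149). The ratio of *Cad* to *Umps*, both per kilobase, was 0.699 to 1.46 in wildtype libraries, 0.903 to 1.09 in the Kat5 ko clones and 0.438, 0.269 and 0.401 in clones Ep400/1, Ep400/2 and Ep400/3. It was therefore below the wildtype range in all Ep400 ko clones and inside it in all Kat5 ko clones.

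The 2 genes for CTP synthase, which aminates UTP, had estimates of opposite sign in the Kat5 ko clones. *Ctps* was at 164, 200, 167 and 179 CPM in wildtype, at 187, 403 and 362 in the Kat5 ko clones and at 167, 123 and 75.5 in the Ep400 ko clones. Kat5/1 and Ep400/1 were within the wildtype range, Kat5/2 and Kat5/3 above and Ep400/2 and Ep400/3 below it. The log2-fold changes were 0.80 (SE 0.24, adjusted p = 0.114) for Kat5 and −0.54 (SE 0.25, adjusted p = 0.165) for Ep400. *Ctps2*, the X-linked paralog, was at 61.1, 65.3, 78.4 and 70.8 CPM in wildtype, 69.7, 42.7 and 45.7 in the Kat5 ko clones and 51.3, 75.4 and 60.6 in the Ep400 ko clones. It was the single enzyme gene with lower levels in Kat5/2 and Kat5/3 than in any wildtype library, at a log2-fold change of −0.41 (SE 0.20, adjusted p = 0.264). In the Ep400 ko clones its log2-fold change was −0.14, with a 95% interval from −0.52 to 0.23 (adjusted p = 0.58). Per kilobase, *Ctps* exceeded *Ctps2* by factors of 3.03 to 4.36 in wildtype libraries, 3.82, 13.4 and 11.3 in the Kat5 ko clones 1, 2 and 3, and 4.64, 2.33 and 1.77 in clones Ep400/1, Ep400/2 and Ep400/3. The factor was above the wildtype range in Kat5/2, Kat5/3 and, by a small margin, Ep400/1, and below it in Ep400/2 and Ep400/3. *Gm16465*, which is 92.3% identical to the coding sequence of *Ctps* over 1775 bases, had 0 or 1 counts in each library.

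*Tyms*, *Dut* and *Tk1*, the enzyme genes that supply thymidylate, were not called in either knockout against wildtype. Of all genes, 0.499% were called in the Kat5 ko and 13.9% in the Ep400 ko clones. *Tyms*, whose product methylates dUMP to dTMP, was at 75.4, 85.9, 70.6 and 75.6 CPM in wildtype, 78.1, 91.2 and 113 in the Kat5 ko and 73.3, 63.0 and 33.9 in the Ep400 ko clones. Its estimate in the Kat5 ko clones was the smallest of those above 0, with a log2-fold change of 0.26 (SE 0.15, adjusted p = 0.35), and of −0.44 (SE 0.24, adjusted p = 0.243) in the Ep400 ko clones. *Dut* encodes the dUTPase that yields dUMP and keeps uracil out of DNA. Wildtype library 2 stood apart for it with 94.0 CPM against 61.9, 58.0 and 56.7 in the other libraries, and the Kat5 ko clones had 70.4, 97.2 and 88.7, the Ep400 ko clones 56.7, 53.5 and 21 CPM. Clone Ep400/1 was below the lowest wildtype library by less than the rounding of these values. The log2-fold changes were 0.31 (SE 0.21, adjusted p = 0.419) and −0.63 (SE 0.34, adjusted p = 0.236). *Tk1*, the cytosolic thymidine kinase of the salvage route, was at 163, 166, 154 and 143 CPM in wildtype, at 159, 264 and 238 in the Kat5 ko clones and at 129, 106 and 40.4 in the Ep400 ko clones. All Ep400 ko clones were below the wildtype range, with Ep400/3 farthest, but their spread left a log2-fold change of −0.77 (SE 0.33) with an adjusted p of 0.15, and the Kat5 ko clones had 0.46 (SE 0.18, adjusted p = 0.177).

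*Rrm1* and *Rrm2* encode the large catalytic and the small radical-bearing subunit of ribonucleotide reductase. *Rrm1* was at 275, 310, 260 and 289 CPM in wildtype and at 345, 472 and 421 CPM in the Kat5 ko clones. It was the single enzyme gene for which all Kat5 ko clones were above the wildtype range, with a log2-fold change of 0.51 (SE 0.14, 95% interval 0.19 to 0.83) and an adjusted p of 0.102. Clones Ep400/1, Ep400/2 and Ep400/3 had 402, 267 and 148 CPM of *Rrm1* and thus lay above, inside and below the wildtype range. The mean of these clones hides this spread, with a log2-fold change of −0.06, a 95% interval from −0.72 to 0.60 and an adjusted p of 0.907, and the value was 0.23 without Ep400/3. *Rrm2* was at 164, 238, 196 and 178 CPM in wildtype, 214, 454 and 489 in the Kat5 ko and 211, 154 and 56.4 in the Ep400 ko clones. Its log2-fold change of 0.96 (SE 0.27, adjusted p = 0.104) was the highest of the 10 genes in the Kat5 ko clones, and it had the widest spread among the Ep400 ko clones, by a factor of 3.74 from lowest to highest (−0.47, SE 0.38, adjusted p = 0.418). Per kilobase of annotated exon, the ratio of *Rrm2* to *Rrm1* was 2.37 to 3.05 in wildtype libraries, 2.46, 3.82 and 4.61 in the Kat5 ko clones 1, 2 and 3, and 2.08, 2.29 and 1.51 in clones Ep400/1, Ep400/2 and Ep400/3. Its size depends on the exon lengths used, 11012 bases for *Rrm1* and 2771 for *Rrm2*, while the factor by which it differs between libraries does not. Without division by length, *Rrm1* was the higher in wildtype, with means of 283 against 194 CPM. *Rrm2b*, which encodes the alternative small subunit, had 11.6 to 19.9 CPM in wildtype and log2-fold changes of 0.10 (SE 0.27, adjusted p = 0.859) and −0.02 (SE 0.25, adjusted p = 0.969).

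**Figure D2:**
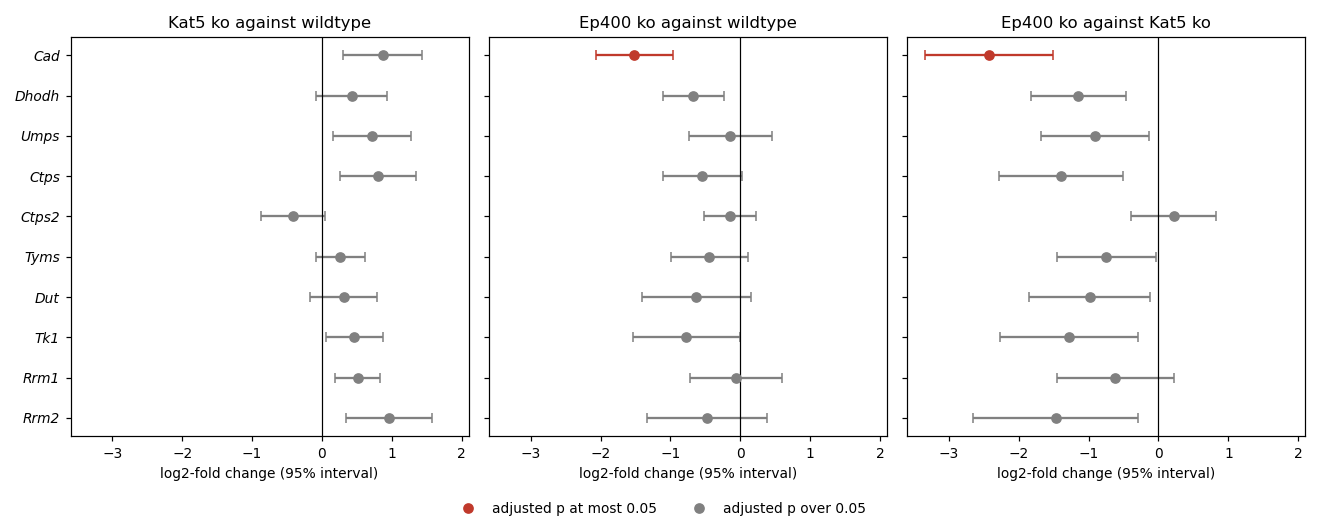
Log2-fold changes (x axes, points) with 95% intervals (bars) of the 10 enzyme genes (y axis) for Kat5 ko against wildtype, Ep400 ko against wildtype and Ep400 ko against Kat5 ko, with red marking an adjusted p of at most 0.05. Cad is red for both comparisons of Ep400 ko, at −1.52 and −2.43, and no gene is red for Kat5 ko against wildtype.

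Counted together in the Kat5 ko clones, 9 of the 10 enzyme genes had a positive and 1 a negative log2-fold change, with a median of 0.49 against 0.00 over the 13434 genes tested. None of the 10 was called by edgeR's quasi-likelihood test, where 0.499% of all genes were, and 6 had an unadjusted p under 0.05, as did 22.3% of all genes. DESeq2 called 4 of the 10, *Cad*, *Ctps*, *Rrm1* and *Rrm2*, against 9.46% of all genes. Without clone Kat5/1, edgeR called 8 of the 10, all but *Tyms* and *Dut*, against 19.3% of all genes, with log2-fold changes of −0.67 for *Ctps2* and 0.62 to 1.25 for the others called. All Kat5 ko clones were above all wildtype libraries for 1 of the 10, against 9.66% of all genes. In the Ep400 ko clones, by contrast, all 10 had a negative log2-fold change, as did 6492 of the 13836 genes tested. The median was −0.51 against 0.04 over all genes tested. The 2 comparisons share the wildtype libraries. Among the 10 genes, *Cad* was the only one called, against 13.9% of all genes in either direction and 5.76% downward, and 3 had an unadjusted p under 0.05, which is near the 32.3% of all genes that did. All Ep400 ko clones were below all wildtype libraries for 4 of the 10, *Cad*, *Dhodh*, *Dut* and *Tk1*, against 14.1% of all genes. DESeq2 called *Cad* and *Dhodh* against 19.6% of all genes, and edgeR without clone Ep400/1 called *Cad* and *Ctps* (−0.84) against 14.3%. Without Ep400/3, estimates came closer to 0, from −0.54 to −0.30 for *Ctps*, −0.44 to −0.18 for *Tyms*, −0.63 to −0.30 for *Dut*, −0.77 to −0.42 for *Tk1* and −0.47 to −0.09 for *Rrm2*. In this fit *Umps* (0.10) and *Rrm1* (0.23) had positive estimates, while *Cad* was at −1.31 and still called. The fold and mean thresholds of the study together with the adjusted p left *Cad* among the 10, and 6.48% of all genes.

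Set directly against each other, the knockouts differed in *Cad*, with a log2-fold change of −2.43 (SE 0.40, 95% interval −3.35 to −1.51, adjusted p = 0.0286) for Ep400 ko against Kat5 ko. It was the 1 enzyme gene called among the 10, where 7.32% of all 13587 genes tested were called, 2.97% of all genes downward and 5.51% with the thresholds of the study. The call was lost when Kat5/2 (log2-fold change −2.19), Kat5/3 (−2.36), Ep400/2 (−2.36) or Ep400/3 (−2.22) was left out, with adjusted p between 0.0698 and 0.106, and also under the replicate block (−2.44, adjusted p = 0.0618). All Ep400 ko clones were below all Kat5 ko clones for 8 of the 10 genes, against 18% of all genes, the exceptions being *Ctps2* and *Rrm1*. Of the 10 log2-fold changes, 9 were negative, with a median of −1.07 against 0.01 over all genes, and 8 of the genes had an unadjusted p under 0.05, as did 32.4% of all genes. The next estimates were those of *Rrm2* (−1.47, SE 0.51, adjusted p = 0.0975), *Ctps* (−1.39, SE 0.38, adjusted p = 0.061), *Tk1* (−1.28, SE 0.42, adjusted p = 0.0888) and *Dhodh* (−1.15, SE 0.29, adjusted p = 0.0539). With DESeq2, these 4 genes and *Cad* were called, 5 of the 10 against 19.3% of all genes.

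Clones of the same knockout differed from each other over the whole pathway. Relative to the wildtype mean, the median log2 level of the 10 genes was 0.07 in Kat5/1, 0.79 in Kat5/2 and 0.59 in Kat5/3. In Kat5/1 only *Rrm1* was above the wildtype range, where 27.8% of all genes were, and none of the 10 was below it. Kat5/2 had 9 of the 10 genes above, against 33.6% of all genes, and Kat5/3 had 8 above, against 33.2%. Both had *Ctps2* below, where 34.1% and 31.9% of all genes were. The medians in Ep400/1, Ep400/2 and Ep400/3 were −0.17, −0.34 and −1.21, with 5, 7 and all 10 genes below the wildtype range, against 29.5%, 31.8% and 34.4% of all genes. In each Ep400 ko clone *Cad* was the lowest of the 10, at −1.01, −1.69 and −2.05.

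**Figure D3:**
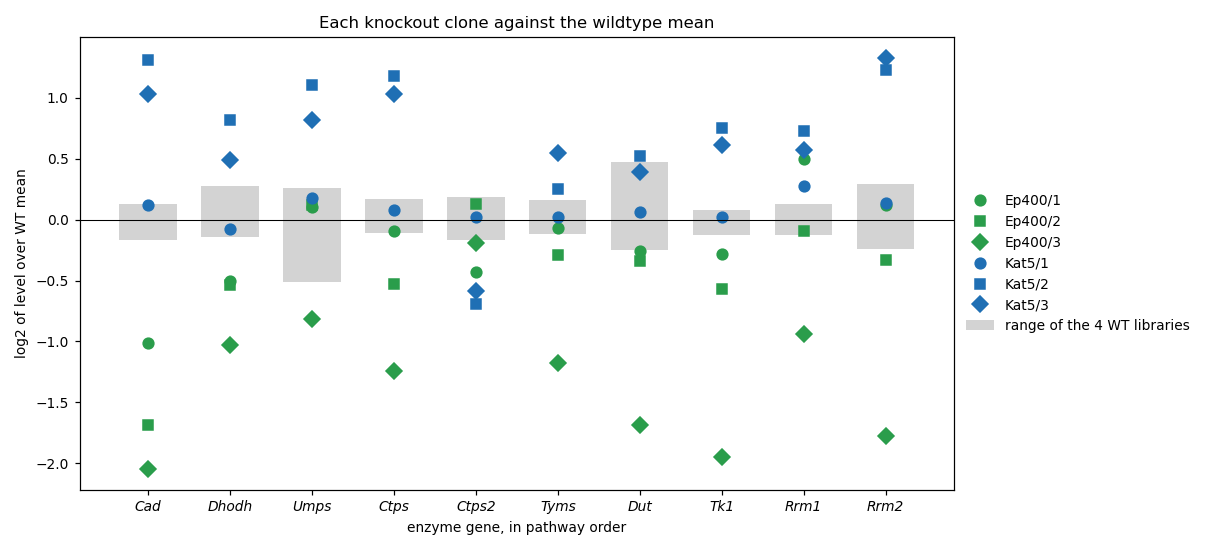
Log2 ratio of the level in each knockout clone to the wildtype mean (y axis) for the 10 enzyme genes in pathway order (x axis), with the range of the 4 wildtype libraries in grey. Cad lies at −1.01, −1.69 and −2.05 in Ep400/1, Ep400/2 and Ep400/3, and Ctps2 at −0.69 and −0.59 in Kat5/2 and Kat5/3, where most other genes lie above the grey range.

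A list of 21 genes of S phase, such as the *Mcm* helicase genes, *Pcna* and *Cdc6*, varied within each knockout in the same order of clones as the enzyme genes. Its median log2 level relative to wildtype was 0.06, 0.60 and 0.38 in Kat5/1, Kat5/2 and Kat5/3, and 0.09, −0.31 and −1.40 in Ep400/1, Ep400/2 and Ep400/3, with −0.11 to 0.11 in wildtype libraries. The proportion of cells in S phase was not measured in these files, and its part in the levels of the enzyme genes was not tested. In Ep400/1 the S phase list was at the wildtype level, and 5 enzyme genes were below the wildtype range, where 29.5% of all genes were. They were *Cad* (−1.01), *Dhodh* (−0.50), *Ctps2* (−0.43), *Tk1* (−0.28) and, by a very small margin, *Dut* (−0.26). The chromosomes of *Ctps2*, *Dhodh* and *Tk1* had median shifts of −0.25, −0.21 and −0.17 in this clone. Those of *Cad* and *Dut* had 0.03 and 0.14. The part of these shifts in the levels of single clones was not tested. *Rrm1* (0.50) was above the range in this clone, and *Umps*, *Ctps*, *Tyms* and *Rrm2* were inside it. None of the 21 genes was called in either knockout against wildtype. With an unadjusted p under 0.05 there were 8 of 21 in the Kat5 ko and 2 in the Ep400 ko clones, against 22.3% and 32.3% of all genes. DESeq2 called 3 and 0 of the 21, against 9.46% and 19.6%. The median log2-fold changes were 0.32 and −0.44. Without clone Kat5/1, 9 of the 21 were called in the Kat5 ko clones (19.3% of all genes), and without Ep400/1, 2 were in the Ep400 ko clones (14.3% of all genes). Between the knockouts, 1 of the 21 genes was called, against 7.32% of all genes. It was *Ccne1*, the cyclin E gene that acts at entry into S phase (−1.96, SE 0.46, adjusted p = 0.0485). *Ccne1* was not called when Kat5/2, Kat5/3 or any Ep400 ko clone was left out, with chromosome offsets or with the block. Of 7 genes for E2F and MYC regulators, 0 were called in the 3 comparisons, with 4 (Kat5 ko), 1 (Ep400 ko) and 2 (between the knockouts) at an unadjusted p under 0.05, against 22.3%, 32.3% and 32.4% of all genes. *Myc* was at 102 to 180 CPM in wildtype, 172, 295 and 260 in the Kat5 ko clones and 266, 216 and 70.8 in the Ep400 ko clones.

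**Figure D4:**
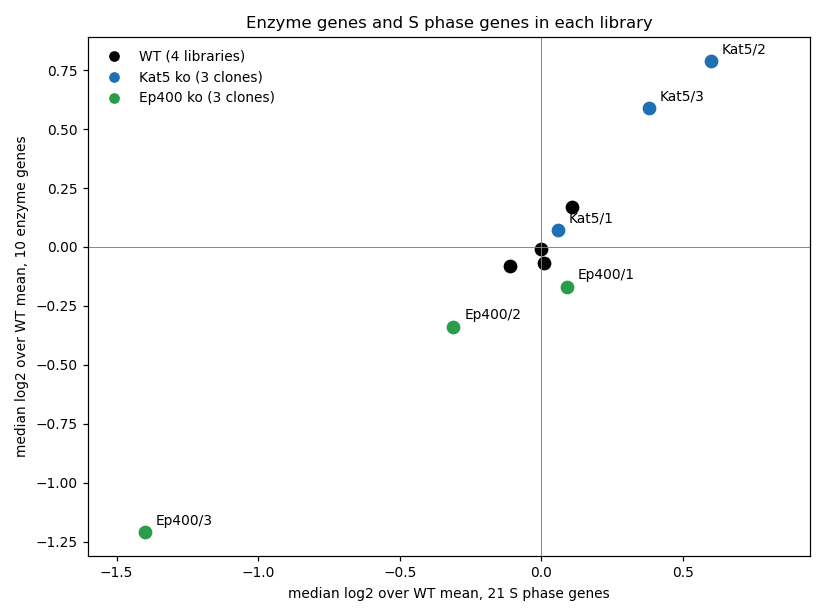
Median log2 level relative to the wildtype mean of the 21 S phase genes (x axis) and of the 10 enzyme genes (y axis), with 1 point per library. Ep400/3 lies lowest at −1.40 and −1.21, Kat5/2 highest at 0.60 and 0.79, and Kat5/1 among the wildtype libraries.

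The rest of the pathway, in a list of 33 other genes for nucleotide kinases, salvage, uptake, breakdown and partner enzymes, was counted for comparison. In the Kat5 ko clones 28 of them could be tested and 0 were called, with 9 at an unadjusted p under 0.05 (22.3% of all genes), a median of 0.11 and 3 called by DESeq2 (9.46% of all genes). Without Kat5/1, 9 were called (19.3% of all genes). Among 29 tested in the Ep400 ko clones, 2 rose and 6 fell, against the 13.9% of all genes called, with a median of −0.14. Fewer were called without wildtype library 1 (5, against 6.01% of all genes), 2 (6, against 7.27%) or 4 (6, against 6.37%). The same held without Ep400/2 (5, against 10.2%) or Ep400/3 (7, against 12.4%). It also held in 1 fit of all libraries (7, against 9.04%), with chromosome offsets (7, against 13.2%) and with the replicate block (0, against 1.23%). The other alternatives called 8 to 10, where 8.89% to 19.6% of all genes were called. *Uck2*, which encodes the uridine-cytidine kinase of the salvage route, fell from 164 to 214 CPM in wildtype libraries to 110, 93.5 and 59.5 in the Ep400 ko clones (−1.10, SE 0.22, adjusted p = 0.0158). *Dctd*, whose product deaminates dCMP to the dUMP used by thymidylate synthase, was at 32.8 to 58.8 CPM in wildtype and 27.9, 16.3 and 11.5 in the Ep400 ko clones (−1.19, SE 0.33, adjusted p = 0.0449). *Dctpp1*, which encodes a dCTP pyrophosphatase, fell likewise (−1.25, SE 0.35, adjusted p = 0.0492).

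The other genes of this list that fell in the Ep400 ko clones encode 5′-nucleotidases and a nucleoside diphosphate kinase. *Nt5c3b* went from 63.9 to 70.7 CPM in wildtype to 31.9, 38.1 and 26.1 (−1.08, SE 0.16, adjusted p = 0.00582), *Nt5c* changed by −1.04 (SE 0.18, adjusted p = 0.0102) and *Nme4* by −1.01 (SE 0.22, adjusted p = 0.0204). *Nme4* was also low in clone Kat5/2, at 14.5 CPM against 32.5 to 54.3 in wildtype. The genes that rose were *Slc29a1*, which encodes an equilibrative nucleoside transporter, and *Dpyd*, whose product starts uracil and thymine breakdown. *Slc29a1* was at 89.2 to 98.9 CPM in wildtype and 167, 139 and 143 in the Ep400 ko clones (0.67, SE 0.12, adjusted p = 0.0122). In Kat5/1, Kat5/2 and Kat5/3 it was at 52.4, 175 and 67.5 CPM, so that Kat5/2 was above every Ep400 ko clone. *Dpyd* had 3 to 27 raw counts in wildtype libraries and 202, 126 and 492 in clones Ep400/1, Ep400/2 and Ep400/3 (4.23, SE 0.73, adjusted p = 0.00992), so that it stayed at a low level of 3.94 to 12.2 CPM. Between the knockouts, *Dpyd* was higher in the Ep400 ko clones, and *Uck2*, *Dctd*, *Dctpp1*, *Nt5c*, *Nt5c3b* and *Nme1* were lower, a total of 7 of 29 against 7.32% of all genes, and 1 was called with the replicate block, against 1.57% of all genes. No gene of the list was called when Kat5/2, Kat5/3, Ep400/2 or Ep400/3 was left out. In these fits 0.571%, 0.0356%, 0.243% and 0.029% of all genes were called.

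**Figure D5:**
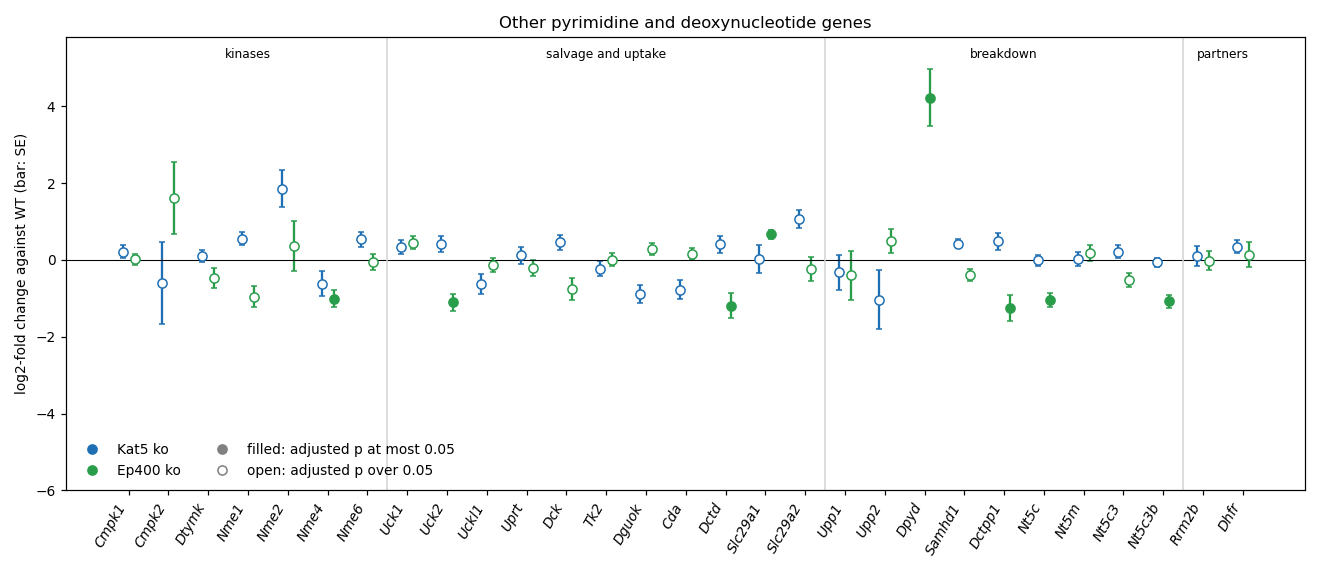
Log2-fold changes against wildtype (y axis, bars for the standard error) of the other pyrimidine and deoxynucleotide genes that could be tested (x axis, grouped by role) in the Kat5 ko and Ep400 ko clones, with filled points for an adjusted p of at most 0.05. Filled points occur for Ep400 ko only, 6 below and 2 above 0, with Dpyd highest at 4.23.

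Genes with a pattern like that of *Cad* over the 10 libraries were sought among 14078 genes by Pearson's correlation of log2 CPM. *Ctdnep1* (r = 0.987), *Ubqln4* (0.986) and *Gm9855* (0.985) were closest, as a description over libraries that share their groups. Reads on overlapping genes were few. *Afmid*, which overlaps *Tk1* on the opposite strand, had 78 to 179 counts, *S100g* within *Ctps2* had 0 to 23 and the antisense gene *Gm15829* at *Umps* 0 to 2. Genes of chromosome 5, which holds *Cad* and *Tyms*, were shifted by medians of at most 0.13 on the log2 scale in any library. Shifts of 0.21 or more in size occurred for chromosome 16 (*Umps*) in wildtype library 3 (−0.30) and Kat5/1 (0.21), chromosome X (*Ctps2*) in Ep400/1 (−0.25), chromosome 12 (*Rrm2*) in Kat5/1 (−0.27) and chromosome 8 (*Dhodh*) in Ep400/1 (−0.21). Chromosome 11 (*Tk1*) had smaller shifts, of −0.17, −0.19 and −0.20 in Ep400/1, Ep400/2 and Ep400/3 and of −0.13, 0.09 and 0.15 in Kat5/1, Kat5/2 and Kat5/3. With offsets for the chromosome shifts, *Tk1* moved from −0.77 to −0.59 (adjusted p = 0.252 in edgeR's test) in the Ep400 ko clones. *Dhodh* moved there from −0.67 to −0.55 (adjusted p = 0.0936 in edgeR's test). *Ctps* moved away from 0, from −0.54 to −0.69 (adjusted p = 0.0994 in edgeR's test). Between the knockouts *Tk1* moved from −1.28 to −1.04 (adjusted p = 0.125 in edgeR's test). The number of called enzyme genes with these offsets was 0, 1 and 1 in the 3 comparisons, as without them.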

How the data were processed

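Poly-A RNA libraries (stranded TruSeq kit) of 10 cultures, 4 wildtype, 3 Kat5 ko clones and 3 Ep400 ko clones, were sequenced as paired reads, and the authors mapped the reads to mm10. The submitters' processing notes name bcl2fastq 2.20, STAR 2.7.3, DESeq2 1.36.0 and R 4.2.1, and the counting program, its strand setting and the annotation are not given in the sources used here. The deposited raw counts are whole reads per gene, as made by the authors. The deposited tables of normalized values for each knockout were not used.

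The members and gene lists were chosen with earlier results of these data known. Within each pair of groups, genes passing filterByExpr were normalized by TMM and tested with edgeR 4.0.16 (quasi-likelihood, Benjamini-Hochberg) in R 4.3.3, and DESeq2 1.42.0 was an alternative. Levels used TMM factors over all 10 libraries and lengths were exon unions of GENCODE M21 (GRCm38, the same build as mm10). Named beside the members were called genes of the lists, up to 8 per list, and the 3 genes most like each called member. The likeness used log2 CPM with a prior count of 2. Copies of coding sequences were sought with blastn 2.17.0. Alternatives were other size factors, no filter on low counts, 1 fit of all libraries, a replicate block, chromosome offsets, each library left out and, chosen after seeing the data, robust spread estimation. At 30968945 to 48301792 counts per library, no replicates agreed within counting noise (chi-square over its degrees of freedom 28.1 to 258).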

Additional observations from a re-analysis of the deposited data

Results flagged for a closer look

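*Dhodh* and *Dut* in wildtype library 2 stood apart from the other wildtype libraries, at 32.3 CPM against 24.3 to 25.3 and at 94.0 CPM against 56.7 to 61.9. By Dixon's criterion, which was applied to the 4 wildtype libraries, chance sets apart about 1 in 20 groups. The change of *Cad* differed between the knockouts, by a log2-fold change of −2.43 for Ep400 ko against Kat5 ko (standard error 0.40, adjusted p = 0.0286 in edgeR's quasi-likelihood test), with 62.5 to 129 CPM in the Ep400 ko and 280 to 640 CPM in the Kat5 ko clones.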

How the results depend on the processing

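The number of called enzyme genes moved with the test and with single clones. The share of all genes called in the same fit, given in brackets, moved as well. For Kat5 ko it was 0 of the 10 (0.499%), but 4 with DESeq2 (9.46%). With 1 library left out it was 0 to 8, with 8 without Kat5/1 (19.3%). For Ep400 ko it was 1 (13.9%), but 2 with DESeq2 (19.6%) and 0 with the replicate block (1.23%). With 1 library left out it was 1 to 2, with 2 without Ep400/1 (14.3%). Between the knockouts it was 1 (7.32%), but 5 with DESeq2 (19.3%) and 3 without a filter (8.08%). It was 5 in 1 fit of all libraries (25.1%) and 0 with the block (1.57%). With 1 library left out it was 0 to 3, with 3 without Kat5/1 (18%). Over all alternatives with all libraries, the adjusted p of *Cad* ranged from 5.47e-07 to 0.0591 for Ep400 ko against wildtype and from 5.07e-07 to 0.0618 between the knockouts. Of 410 log2-fold changes of single genes under alternatives, 2 reversed, *Umps* (0.10) and *Rrm1* (0.23) in Ep400 ko without Ep400/3. With 1 library left out their ranges were −0.31 to 0.10 and −0.45 to 0.23.

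Over all genes, 67 were called for Kat5 ko, 1382 with DESeq2, 245 without a filter, 26 in 1 fit, 0 with the block (1989 at an unadjusted p under 0.05) and 1 to 2651 with 1 library left out. For Ep400 ko 1917 were called, 3177 with DESeq2, 1273 in 1 fit, 170 with the block and 826 to 2016 with 1 library left out. Between the knockouts 994 were called, 3021 with DESeq2, 1803 without a filter, 3539 in 1 fit, 213 with the block and 4 to 2537 with 1 library left out. The cause was not tested. Replicate numbers do not pair the libraries, with correlations of deviations from −0.0957 to 0.223.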
